A study of Mus musculus with 10 samples.

Results

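The mRNA levels of 33 genes of fibroblasts and extracellular matrix were followed in cultured mouse keratinocytes, the main cell type of the epidermis, under 4 conditions. The genes were chosen by name, with no rule on their values, though with earlier results of these data known: fibrillar, basement membrane and type VI collagens, small proteoglycans, elastic fibre genes, adhesive glycoproteins, a matrix protease with inhibitors, surface and cytoskeletal markers and mesenchymal transcription factors. Of these, 32 were measured among the 18194 genes that had probe sets with a single gene symbol, and Fbn1 was not. The cells were primary keratinocytes from newborn FVB mice. In the undifferentiated condition (n = 2 arrays) the cells stayed in medium low in calcium, and in the differentiated condition (n = 4) they spent 2 days in medium with more calcium, which makes keratinocytes differentiate. In the A-C/EBP condition (n = 2) differentiated keratinocytes expressed A-C/EBP, a dominant negative protein that pairs with C/EBP transcription factors and keeps them off DNA, from a transgene under tetracycline control that was switched on by taking doxycycline away. The promoter that drives the tetracycline regulator is not given in the sources used here, and neither is the genotype behind each of the 4 differentiated arrays. In the 5-AZA condition (n = 2) differentiated keratinocytes had been given 5-azacytidine, a cytidine analogue that blocks the maintenance of DNA methylation. No label says that replicates came from separate cultures or animals. The p-values therefore refer to the spread among these arrays alone, and part or all of it could be technical.

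In skin the fibrillar collagens (types I, III and V) are made chiefly by dermal fibroblasts, where lysyl oxidases cross-link them and small leucine-rich proteoglycans such as decorin and biglycan bind them. Collagen IV forms the network of the basement membrane beneath the epidermis, to which keratinocytes themselves contribute, and collagen VI forms beaded filaments near it. Matrix metalloproteinases cut these proteins, and the tissue inhibitors of metalloproteinases (TIMPs) hold those enzymes back. Keratinocytes in culture are attached to a dish without dermis, but fibroblasts can be carried over when the epidermis is taken off.

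The arrays carried a strong keratinocyte signal. All 16 keratinocyte markers tested lay above the median probe set in every array, with a mean log2 level of 10.68 to 11.62, where the median probe set of an array lay between 4.64 and 4.78. Of the 32 measured matrix and fibroblast genes, 24 lay above it in every array, 6 in some arrays only, and lumican (Lum) and Twist1, a transcription factor of mesenchyme, in none. Signal below the median probe set is not shown to exceed background. The average over probe sets of Pdgfra, a receptor that marks dermal fibroblasts, lay below it in 9 of 10 arrays, that of Fbln2 in 8, of the type III collagen gene Col3a1 in 6, of Loxl1 and Prrx1 in 5 and of decorin (Dcn) in 3. These averages hold dim probe sets. Fbln2, Col3a1 and Dcn each had 1 probe set above it in every array, and the least dim probe sets of Pdgfra, Loxl1 and Prrx1 lay below it in 2, 2 and 1 arrays. Of 14 other measured fibroblast markers, 5 lay below it in every array (Fap, Pi16, Cd34, Ebf2 and Hgf, which are named after their values were seen), and their mean level was 5.59 to 6.26. So did 5 of 10 endothelial markers (mean 4.29 to 4.47), 5 of 10 immune markers (4.77 to 5.26), 2 of 10 smooth muscle and pericyte markers (5.53 to 6.25) and 0 of 8 melanocyte markers (7.64 to 8.40).

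The matrix genes varied together among replicates of the same condition. The mean level of the 5 fibrillar collagen genes was 6.56 and 5.87 in undifferentiated replicates 1 and 2, and 7.03, 6.13, 6.08 and 7.06 in differentiated replicates 1 to 4. It was 5.78 and 6.21 in the A-C/EBP arrays and 7.20 and 6.35 in the 5-AZA arrays. Undifferentiated replicate 1, differentiated replicates 1 and 4 and 5-AZA replicate 1 were the high arrays, and the replicates of the undifferentiated and of the 5-AZA condition lay further apart than the mean of that condition lay from the mean of the differentiated arrays. Among the 24 genes above the median probe set throughout, the highest value of the condition fell in undifferentiated replicate 1 for 20 genes, against 62.8% of the 9711 genes that lay above it throughout. For 22 of 24 it fell in 5-AZA replicate 1 (60.0% of genes), and for 18 of 24 in A-C/EBP replicate 2 (39.5%). In the differentiated condition the highest value fell in replicate 4 for 12 genes, in replicate 1 for 10, in replicate 3 for 2 and in replicate 2 for 0, against 28.1%, 28.1%, 35.9% and 7.92% of genes.
The gap between the lowest and the highest differentiated array had a median of 1.04 on the log2 scale over these 24 genes and 0.39 over the 9711 genes. It was 0.49 against 0.17 in the undifferentiated arrays, 0.34 against 0.19 with A-C/EBP and 0.69 against 0.20 with 5-AZA. Levels in RNA from whole cultures do not tell fewer cells of a type from less RNA per cell. The 14 other fibroblast markers had means of 6.11, 5.76, 5.76 and 5.94 in differentiated replicates 1 to 4, where 5 of the 14 lay below the median probe set throughout, while the keratinocyte markers were at 11.00, 10.76, 10.82 and 11.04. Some single markers spread as widely as the collagens and others did not (both kinds named after their values were seen). Serpinf1 was at 8.98, 7.59, 7.21 and 7.92 in these arrays, and Fstl1 at 8.21, 7.50, 6.95 and 7.99. S100a4 stayed at 10.85, 10.95, 10.96 and 11.15, Gsn at 8.94, 8.81, 8.61 and 8.94, and Cd248 at 6.26, 6.32, 6.27 and 6.63. Hybridization controls, which are added to each sample in fixed amounts, had a mean of 9.03 in undifferentiated replicate 1 and 10.07 in replicate 2, and of 9.03, 10.37, 9.92 and 9.83 in the differentiated arrays. They were at 9.50 and 11.34 with A-C/EBP and at 9.99 and 10.59 with 5-AZA, and their part in the spread of the matrix genes was not tested.

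**Figure D1:**
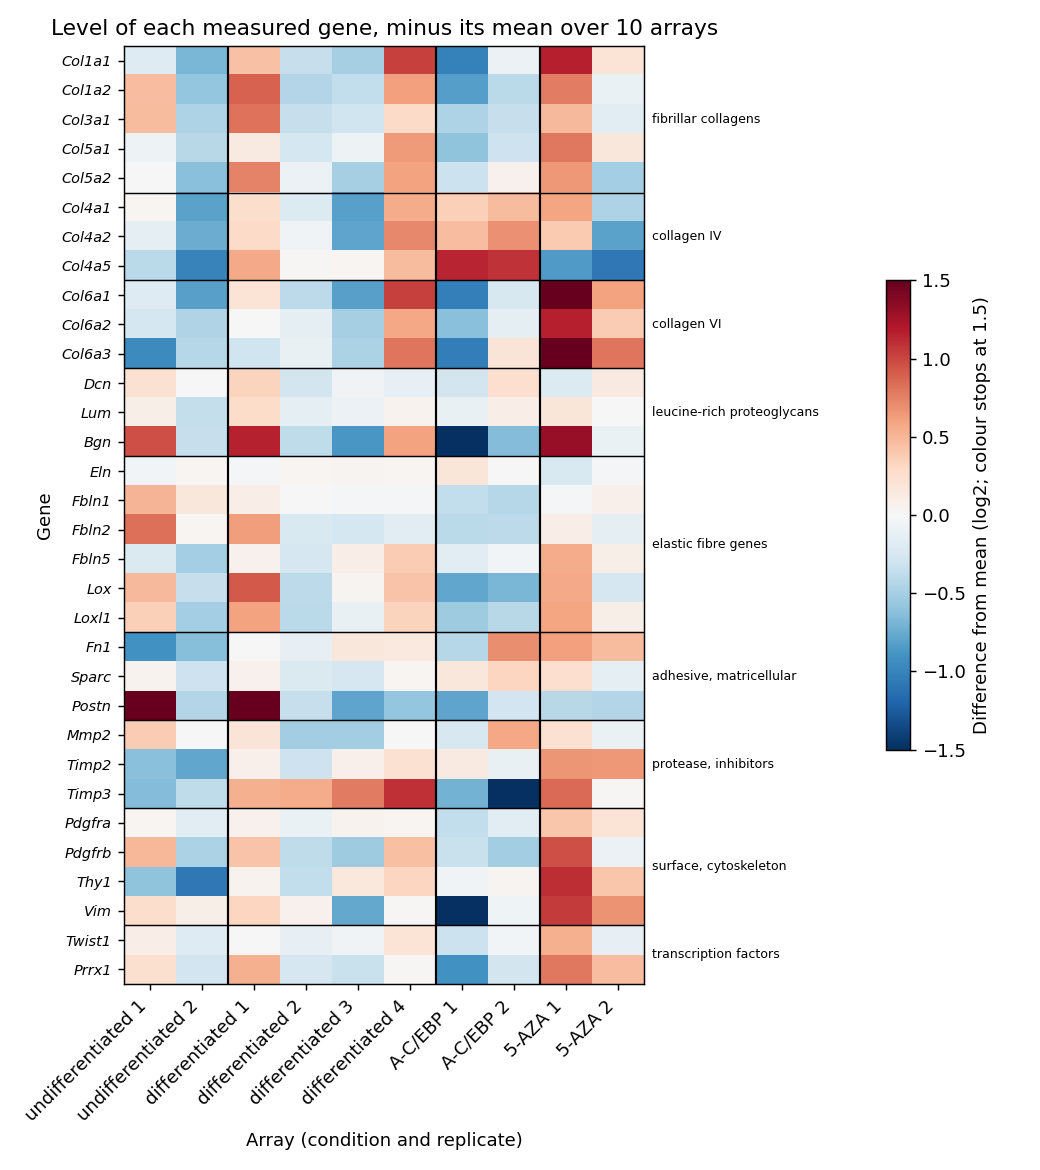
Log2 level of each of the 32 measured genes (rows, grouped by role) in each of the 10 arrays (columns), minus the mean of that gene over the arrays. Red is above and blue below that mean, and colours stop at a difference of 1.5. Fibrillar collagen genes are red in differentiated replicates 1 and 4 and in 5-AZA replicate 1.

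Periostin (Postn), a matricellular protein of connective tissue, and biglycan (Bgn) spread widely within conditions, with SDs of 1.38 and 0.92 in the differentiated arrays. Postn was at 7.58 and 5.23 in the undifferentiated arrays, at 7.83, 5.32, 4.87 and 5.09 in the differentiated ones, at 4.88 and 5.38 with A-C/EBP and at 5.25 and 5.23 with 5-AZA. Undifferentiated replicate 1 and differentiated replicate 1 were thus high and the other 8 arrays low. Bgn was at 8.84 and 7.53, at 9.03, 7.50, 7.00 and 8.48, at 6.21 and 7.23 and at 9.18 and 7.78 in the same order. It was high in the same arrays as Postn but also in differentiated replicate 4 and 5-AZA replicate 1. Elastin (Eln) stayed between 4.93 and 5.35 in all 10 arrays, close to the median probe set. Sparc, a collagen-binding glycoprotein, stayed between 8.50 and 9.13.
Col1a1, a chain of type I collagen, was at 7.01 and 6.51 in the undifferentiated arrays, at 7.64, 6.85, 6.70 and 8.22 in the differentiated ones, at 6.19 and 7.11 with A-C/EBP and at 8.36 and 7.40 with 5-AZA. Col1a2, its partner chain, was at 6.41 and 5.37, at 6.83, 5.51, 5.58 and 6.56, at 5.12 and 5.54 and at 6.71 and 5.85 in the same order. Both were high in differentiated replicates 1 and 4 and in 5-AZA replicate 1, and each condition overlapped the differentiated one. Pdgfrb, a receptor of pericytes and fibroblasts, followed the same arrays, at 5.85 and 4.88, at 5.78, 4.97, 4.82 and 5.81, at 5.02 and 4.83 and at 6.32 and 5.27. Prrx1, a homeobox gene of mesenchyme, was at 5.28 in differentiated replicate 1 and 4.41 to 4.76 in the other 3, and at 5.54 and 5.21 with 5-AZA, where 1 of the 4 differentiated arrays overlapped it. Fbln5 and Loxl1, genes of elastic fibre assembly, spanned 1.07 and 1.14 over the 10 arrays. Decorin spanned 0.61 and had differences of −0.14, 0.02 and −0.00 in differentiation, A-C/EBP and 5-AZA (standard error 0.20 each). In the differentiated arrays it was at 5.20, 4.59, 4.81 and 4.74, so that replicate 4, where Col1a1 was highest, lay among the low arrays.
Col4a1 and Col4a2, which encode chains of the same collagen IV molecule, varied in parallel. They lie head to head on chromosome 8 of GRCm38.p6, at chr8:11198423-11312889 on the minus strand and chr8:11312805-11449287 on the plus strand in the RefSeq annotation, so that their 5′ ends overlap. Col4a1 was at 8.21 and 7.38 in the undifferentiated arrays, at 8.45, 7.98, 7.37 and 8.74 in the differentiated ones, at 8.54 and 8.66 with A-C/EBP and at 8.77 and 7.72 with 5-AZA. Col4a2 was at 7.73 and 7.13, at 8.16, 7.82, 7.09 and 8.60, at 8.34 and 8.56 and at 8.27 and 7.07. Both genes ranked the replicates of each condition in the same order.

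**Figure D2:**
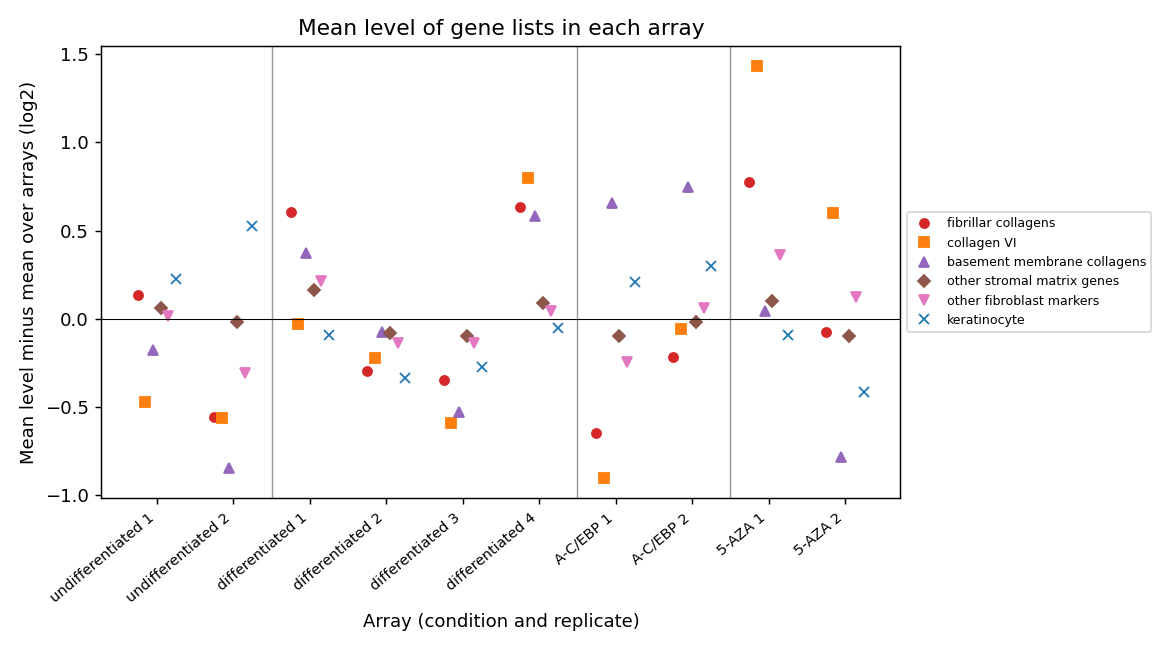
Mean log2 level of 6 gene lists in each array, minus the mean of that list over the 10 arrays. Fibrillar collagens lie higher in differentiated replicates 1 and 4 (7.03 and 7.06) than in replicates 2 and 3 (6.13 and 6.08), and collagen IV lies at its highest with A-C/EBP (8.55 and 8.64).

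With differentiation, 2 inhibitors of metalloproteinases, a basement membrane collagen and a surface glycoprotein rose. Timp3, Timp2, Col4a5 and Thy1 rose 1.65- to 2.40-fold. At a limma adjusted p under 0.05, 4 of the 32 genes rose, where 6.64% of all 18194 genes rose, and 0 fell, where 9.13% of all genes fell. The median difference was 0.18 on the log2 scale (−0.01 over all genes), and 28 of the 32 genes did not pass. Of the 32, 24 lay above 0, where 8735 of the 18194 genes did. The arrays of the 2 conditions did not overlap for 6 of the 32, and for 6206 of the 18194. At an unadjusted p under 0.05, 6 genes lay above 0 (11.1% of all genes) and 1, Fbln1, below 0 (14.7%). Of the 16 keratinocyte markers, 4 fell with differentiation, namely Itga6 (−1.61), Trp63 (−1.42), Itgb4 (−1.38) and, named after its values were seen, Krt5 (−0.75), and Ivl rose (0.80). In all, 13 of the 16 lay below 0 and 3 above it (median −0.37). Krt1 (−1.29) and Krt10 (−1.21), also named after their values were seen, did not pass. The median over the 32 matrix and fibroblast genes rested on single arrays, since it was −0.07 without undifferentiated replicate 2, 0.53 without undifferentiated replicate 1, 0.06 without differentiated replicate 1 and 0.37 without differentiated replicate 2.
Timp3 encodes an inhibitor that stays bound to the matrix. It was at 9.44 and 9.71 in the undifferentiated arrays and at 10.63, 10.65, 10.88 and 11.19 in the differentiated ones. All 4 differentiated arrays lay above both undifferentiated ones, and the difference was 1.26 (standard error 0.35, 2.40-fold, limma adjusted p = 0.0343, n = 4 against 2). All 4 of its probe sets were higher, by 1.17 to 1.38. The call ended without any of these 6 arrays (1.13 to 1.40; adjusted p = 0.225, 0.106, 0.0511, 0.0515, 0.0668 and 0.0798 without undifferentiated replicates 1 and 2 and differentiated replicates 1 to 4). It also ended with the replicate number as a block (1.07, adjusted p = 0.0757). In that fit differentiated replicates 3 and 4, whose numbers no other condition has, do not enter the difference. The call of Timp3 held in the fit of only the 2 compared conditions. Its SD was 0.20 undifferentiated, 0.26 differentiated and 0.97 with A-C/EBP, and the standard error above draws on all 4 conditions.
Timp2, a soluble inhibitor that also takes part in the activation of Mmp2, was at 6.47 and 6.32 in the undifferentiated arrays and at 7.18, 6.79, 7.18 and 7.33 in the differentiated ones. The conditions did not overlap, and Timp2 rose by 0.72 (standard error 0.15, 1.65-fold, limma adjusted p = 0.00751). Its 6 probe sets were higher by 0.19 to 1.53. Without undifferentiated replicate 2 the difference was 0.65 (adjusted p = 0.0783). The protease Mmp2 itself (gelatinase A), which cuts collagen IV among other proteins, had 5.91 ± 0.26 (SD, n = 2) in undifferentiated and 5.51 ± 0.37 (SD, n = 4) in differentiated cells, a difference of −0.40 (adjusted p = 0.439) that did not pass.
Col4a5, the α5 chain of collagen IV, was at 7.23 and 6.63 in the undifferentiated arrays and at 8.20, 7.65, 7.66 and 8.10 in the differentiated ones. Every differentiated array lay above both others, and the rise was 0.97 (standard error 0.20, 1.96-fold, limma adjusted p = 0.00840), the same in both probe sets. Without undifferentiated replicate 2 it was 0.67 (adjusted p = 0.108). Col4a1 and Col4a2 had 0.34 and 0.49 with standard errors of 0.40 and 0.41, and their conditions overlapped.
Thy1, a glycoprotein of fibroblasts, neurons and T cells, was at 5.58 and 5.11 in the undifferentiated arrays and at 6.24, 5.81, 6.34 and 6.51 in the differentiated ones. It rose by 0.88 (standard error 0.23, 1.84-fold, limma adjusted p = 0.0271) without overlap between the conditions. The call ended without undifferentiated replicate 1 (1.11, adjusted p = 0.0501) or 2 (0.64, adjusted p = 0.247) and without differentiated replicate 1, 3 or 4 (0.87, 0.84 and 0.78). Fibronectin (Fn1), an adhesive glycoprotein, lay just outside the threshold with 0.82 (standard error 0.25, adjusted p = 0.0513). Its arrays, 6.26 and 6.53 against 7.17, 7.05, 7.34 and 7.32, did not overlap. Fn1 passed in 10 of 21 other settings, among them the fit of only the 2 compared conditions. The standard error draws on all 4 conditions, and the SD of Fn1 was 0.19 undifferentiated, 0.14 differentiated and 0.80 with A-C/EBP.
The fibrillar collagens had differences of 0.11 to 0.59 and the collagen VI genes of 0.35 to 0.67, all above 0, with the conditions overlapping for each gene. Vimentin (Vim), the intermediate filament of mesenchymal cells, had −0.26 (standard error 0.40), Postn −0.63 (0.81), Fbln2 −0.44 (0.27) and Fbln1 −0.32 (0.11, adjusted p = 0.0811). The 3 probe sets of Fbln1 disagreed, at −0.02, −0.15 and −0.80, and without undifferentiated replicate 2 its difference was −0.50. The transcription factors Twist1 and Prrx1 had 0.05 and 0.01.

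**Figure D3:**
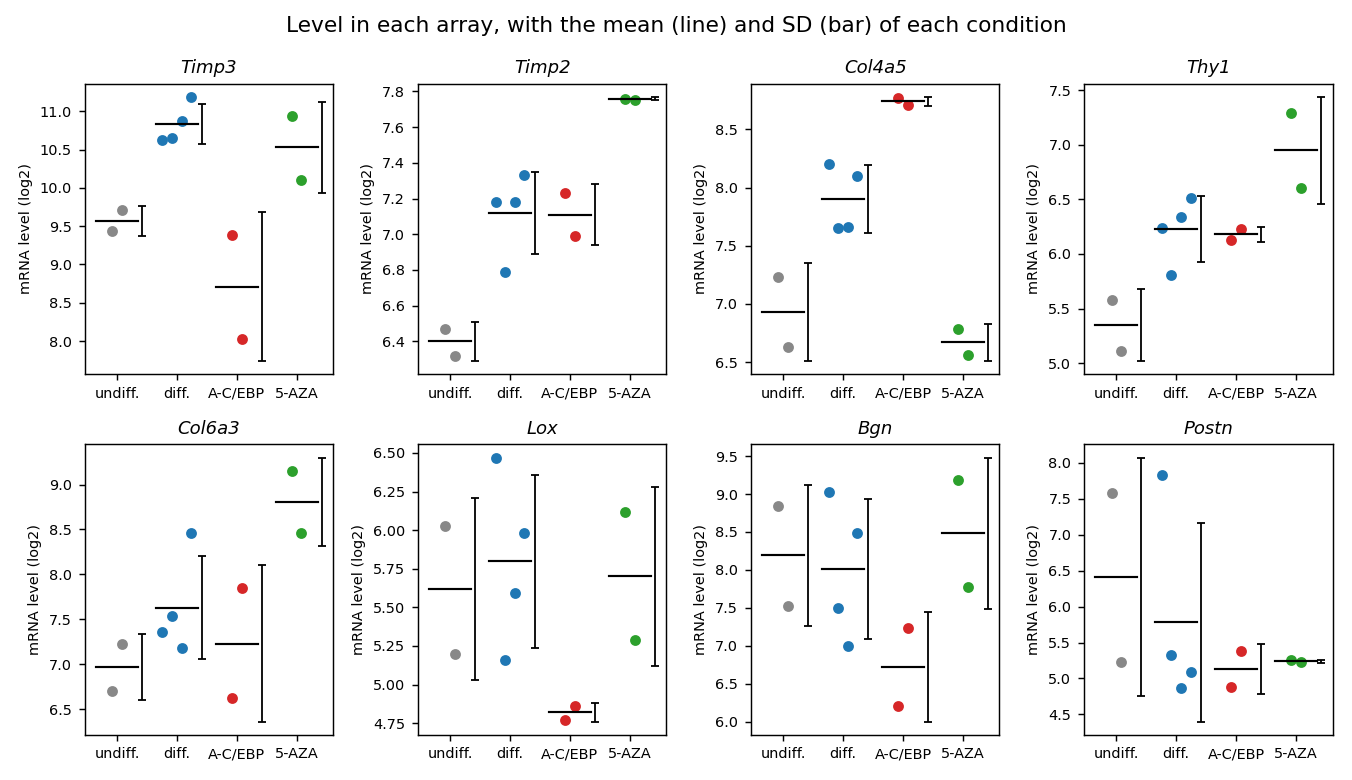
Log2 mRNA level of 8 of the genes in each array (points) of the undifferentiated (n = 2), differentiated (n = 4), A-C/EBP (n = 2) and 5-AZA (n = 2) conditions, with the mean (line) and SD (bar beside the points). Timp3 lies lower in both A-C/EBP arrays (9.39 and 8.02) than in any differentiated array, and Col4a5 lies lower in both 5-AZA arrays (6.78 and 6.56).

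With A-C/EBP, Timp3 fell 4.39-fold and was the only one of the 32 genes that passed the test. At a limma adjusted p under 0.05, 1 gene fell, where 0.583% of all genes fell, and 0 rose, where 1.49% of all genes rose. The median difference from the differentiated arrays, which served in every comparison given here, was −0.38 (0.01 over all genes). Of the 32 genes, 24 lay below 0, where 8608 of the 18194 genes did. The arrays of the 2 conditions did not overlap for 9 of the 32, and for 3892 of the 18194. Of the 16 keratinocyte markers 15 lay above 0 (median 0.35), none of which passed, with means of 11.30 and 11.39 against 10.76 to 11.04, and their part in the shift of the matrix genes was not tested. At an unadjusted p under 0.05, 5 genes lay below 0 (5.52% of all genes) and 1, Col4a5, above it (8.05%). The median was −0.13 without A-C/EBP replicate 1, −0.23 and −0.22 without differentiated replicates 1 and 4, and −0.17 with the hybridization controls as a covariate.
Timp3 was at 9.39 and 8.02 with A-C/EBP, against 10.63 to 11.19 in the differentiated arrays and 9.44 and 9.71 in the undifferentiated ones. Both A-C/EBP arrays lay below all others, by a different amount each. The difference of the means was −2.13 (standard error 0.35, log2 scale, limma adjusted p = 0.0167, n = 2 against 4), and its 4 probe sets had differences of −2.66 to −1.83. Without A-C/EBP replicate 2 the difference was −1.45 (adjusted p = 0.128), and without A-C/EBP replicate 1 it was −2.82 (adjusted p = 0.00260). Timp2 differed by −0.01 (standard error 0.15).
The collagens of the basement membrane lay on the other side of 0 from the fibrillar and type VI collagens, but none of these genes passed. Col4a5 was at 8.77 and 8.71 with A-C/EBP, above the 4 differentiated arrays (7.65 to 8.20), with a difference of 0.84 (standard error 0.20, adjusted p = 0.0695) that did not pass. It passed in 4 of 21 other settings, among them quantile normalization (0.79, adjusted p = 0.0302) and the hybridization controls as a covariate (1.00, adjusted p = 0.0205). The replicate block, where only differentiated replicates 1 and 2 enter the difference, was another (0.82, adjusted p = 0.0259). Col4a1 and Col4a2 had 0.46 and 0.54 (standard errors 0.40 and 0.41, adjusted p = 0.731 and 0.681), and their conditions overlapped. Sparc, which binds collagen IV, had 0.34 (standard error 0.16, adjusted p = 0.378). The 5 fibrillar collagen genes had −0.79 to −0.32 and the 3 collagen VI genes −0.63 to −0.37, and 0 of these 8 passed. Of the 8, Col5a1 (−0.57, standard error 0.25, adjusted p = 0.359) was the one whose arrays, 5.90 and 6.19 against 6.24 to 7.14, did not overlap. Over all genes, 3892 of 18194 did not overlap in this comparison.
Lox, a lysyl oxidase that cross-links collagen and elastin, was at 4.77 and 4.86 with A-C/EBP and at 6.47, 5.16, 5.59 and 5.98 in the differentiated arrays. The conditions did not overlap, but the difference of −0.98 (standard error 0.36, adjusted p = 0.246) did not pass. Its value averages 2 probe sets with differences of −1.32 and −1.43 and 1 that lay below the median probe set of every array (−0.19). Fbln1, a glycoprotein of elastic fibres and basement membranes, was at 5.66 and 5.60 against 6.13, 6.02, 6.00 and 6.00, again without overlap, with a difference of −0.41 (standard error 0.11, adjusted p = 0.106). Its 3 probe sets disagreed, at −1.07, 0.04 and −0.19, and with the brightest probe set per gene in place of the average it passed (−1.07, adjusted p = 0.0123). Bgn had −1.28 (standard error 0.62), Vim −0.77 (0.40), Loxl1 −0.59 (0.30) and Prrx1 −0.58 (0.27), none of which passed. Vim was at 8.12 in A-C/EBP replicate 1 and 9.71 in replicate 2, so that the mean of 8.92 ± 1.13 (SD, n = 2) rested on a single low array.

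With 5-AZA, Col4a5 fell 2.35-fold and no other of these genes passed the test. At a limma adjusted p under 0.05, 1 gene fell, where 0.115% of all genes fell, and 0 rose, where 0.170% of all genes rose. The median difference was 0.21 (0.04 over all genes). Of the 32 genes, 23 lay above 0, where 11004 of the 18194 genes did. The arrays of the 2 conditions did not overlap for 7 of the 32, and for 2982 of the 18194. The keratinocyte markers had a median of 0.05, and 1 of 16, Ivl, fell (−1.38). At an unadjusted p under 0.05, 8 genes lay above 0 (6.01% of all genes) and 1, Col4a5, below 0 (3.08%). The 8 were Col6a1, Col6a2, Col6a3, Pdgfra, Prrx1, Thy1, Timp2 and Vim. The median was −0.02 without 5-AZA replicate 1, 0.48 without 5-AZA replicate 2 and 0.13 without differentiated replicate 2.
Col4a5 was at 6.78 and 6.56 with 5-AZA, below all 4 differentiated arrays (8.20, 7.65, 7.66 and 8.10) and near the undifferentiated ones (7.23 and 6.63). The difference was −1.23 (standard error 0.20, log2 scale, limma adjusted p = 0.0471, n = 2 against 4), with −0.91 and −1.56 in its probe sets. The call was close to the threshold. It ended without any single differentiated, A-C/EBP or 5-AZA array (differences of −1.34 to −1.12, adjusted p = 0.117, 0.0869, 0.0528 and 0.0971 without differentiated replicates 1 to 4, 0.0641 without either A-C/EBP array, and 0.126 and 0.342 without 5-AZA replicates 1 and 2). Col4a1 and Col4a2 had 0.11 and −0.25, with standard errors of 0.40 and 0.41.
The 3 collagen VI genes had differences above 0, at 1.11 (Col6a1, standard error 0.48), 0.79 (Col6a2, 0.29) and 1.17 (Col6a3, 0.41), with adjusted p = 0.532, 0.438 and 0.397. Col6a3 was at 9.15 and 8.46 with 5-AZA and at 7.36, 7.54, 7.18 and 8.46 in the differentiated arrays. Differentiated replicate 4 thus reached the lower 5-AZA array, as it did for the other collagen VI genes. Vim, at 10.82 and 10.44 against 10.10, 9.84, 9.01 and 9.79, did not overlap and had a difference of 0.94 (standard error 0.40, adjusted p = 0.526). Timp2 was at 7.76 and 7.75, above the highest differentiated array at 7.33, with 0.64 (standard error 0.15, adjusted p = 0.153). Thy1 was at 7.29 and 6.60, also above its differentiated arrays, with 0.72 (standard error 0.23, adjusted p = 0.341). Both passed with the replicate number as a block (0.78, adjusted p = 0.0216, and 0.92, adjusted p = 0.0447), where only differentiated replicates 1 and 2 enter the difference. Pdgfra, a receptor for platelet-derived growth factors, had 0.30 (adjusted p = 0.440) as the average of 3 probe sets, of which 2 lay below the median probe set in every array (0.23 and 0.17) and 1 in 2 arrays (0.50). Timp3 had −0.31 (standard error 0.35), with 10.94 and 10.11 in the 5-AZA arrays.

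**Figure D4:**
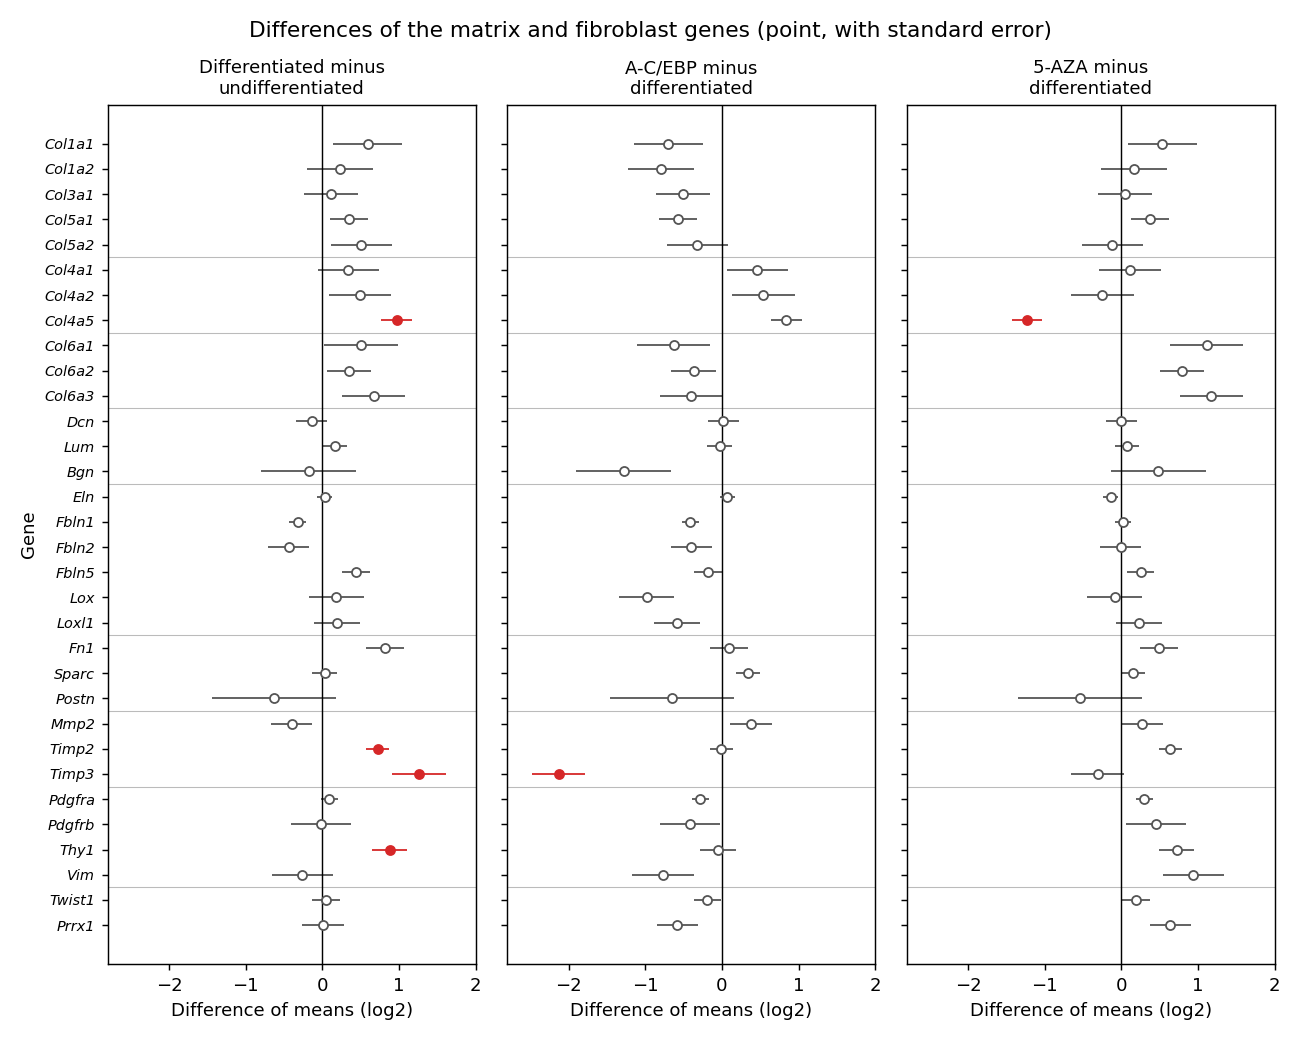
Difference of mean log2 levels for each of the 32 measured genes in the 3 comparisons, with its standard error from limma. Filled red points passed at an adjusted p under 0.05: Timp3, Timp2, Col4a5 and Thy1 in differentiation, Timp3 with A-C/EBP and Col4a5 with 5-AZA. All 3 comparisons share the 4 differentiated arrays.

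Genes of neighbouring functions were counted beside the same shares of all genes (with differentiation 6.64% rose and 9.13% fell). Of 18 measured genes that process collagen in the endoplasmic reticulum and outside the cell, 2 fell with differentiation, namely P4hb (−0.55, limma adjusted p = 0.0392), a subunit of the enzyme that hydroxylates collagen prolines, and Ppib (−0.47, adjusted p = 0.0254), a prolyl isomerase. The call of P4hb held in 14 and that of Ppib in 10 of 21 other settings. Both ended with median centring and without either undifferentiated array or differentiated replicate 3 or 4, that of Ppib also without differentiated replicate 1 and that of P4hb without differentiated replicate 2. None of the 18 passed with A-C/EBP or 5-AZA. Of 24 other stromal matrix genes, 12 lay below the median probe set in every array, and Col16a1 was the only gene that passed (−0.42 with differentiation, adjusted p = 0.0102, a call that ended without undifferentiated replicate 1). Their median differences were −0.05, −0.04 and 0.07 in differentiation, A-C/EBP and 5-AZA. Of 11 genes of the keratinocyte basement membrane, the hemidesmosomal collagen Col17a1 fell with differentiation and the other 10 did not pass.
Of 10 regulators of mesenchyme, Snai2, a zinc finger repressor that basal keratinocytes express too, fell with differentiation from 10.71 and 10.48 to 9.34, 9.36, 9.28 and 9.40. The difference was −1.25 (standard error 0.10, limma adjusted p = 7.48e-05), and it passed in all 21 other settings. The remaining 9 did not pass, and 6 of the 10 lay below the median probe set in every array.
Among 14 other fibroblast markers, 3 rose with differentiation (6.64% of all genes). S100a4, a calcium-binding protein found in many motile cells, rose by 0.60 (adjusted p = 0.00930), the actin-severing protein Gsn by 0.47 (adjusted p = 0.0321) and the surface protease Dpp4 by 0.50 (adjusted p = 0.0456). The calls held in 18 of 21 other settings for S100a4, 13 of 21 for Gsn and 11 of 20 for Dpp4. All 3 calls ended without undifferentiated replicate 1 or 2. Those of Gsn and Dpp4 also ended without differentiated replicate 1 or 4, that of Gsn without differentiated replicate 2, and that of Dpp4 without differentiated replicate 3 or either 5-AZA array. Over the arrays left out, the differences were 0.55 to 0.65 for S100a4, 0.42 to 0.54 for Gsn and 0.44 to 0.55 for Dpp4. Dpp4 also rose with A-C/EBP, from 4.34, 4.23, 4.55 and 4.40 to 5.11 and 5.65 (difference 1.00, adjusted p = 0.0104). Leaving out A-C/EBP replicate 2 gave 0.73 and ended that call. Dpp4 lay below the median probe set in 8 of 10 arrays, and only the A-C/EBP arrays lay above it. Its rise with differentiation thus compares arrays that all lay below it, where signal is not shown to exceed background. S100a4 rose with 5-AZA, from 10.85, 10.95, 10.96 and 11.15 to 12.01 and 11.90 (difference 0.97, adjusted p = 0.0278). That call ended without differentiated replicate 1 or 2 or either 5-AZA array (0.92 to 1.03). The other 12 markers did not pass in either of those comparisons. Of the smooth muscle and pericyte markers, Notch3, a receptor that keratinocytes can express as well, rose by 1.48 with differentiation (adjusted p = 0.00271) and Rgs5 by 0.98 with A-C/EBP (adjusted p = 0.0430), the latter with a level below the median probe set in 9 of 10 arrays. The call of Rgs5 held in 7 of 20 other settings. It ended without any single array except A-C/EBP replicate 1, with 0.50 where replicate 2 of that condition was left out, and the difference was 0.10 (adjusted p = 0.861) with its brightest probe set. Tagln, the smooth muscle marker with the highest mean level, had 0.85 with 5-AZA (adjusted p = 0.141). Of the endothelial markers, Egfl7 fell with differentiation (−0.36, limma adjusted p = 0.0289), a call that held in 11 of 21 other settings. The melanocyte marker Tyr also fell with differentiation (−0.51, limma adjusted p = 0.0499), a call that held in 6 of 21. Dct, Krt6a and Lyz2, the melanocyte, keratinocyte and immune markers with the highest mean level, did not pass in any comparison.

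The sequence before the start of Timp3 and of Col4a5 is shown because these genes passed in more than 1 comparison, among them those with the C/EBP inhibitor and the demethylating agent. The sequences are those of RefSeq on GRCm38.p6, 5′ to 3′ on the plus strand, on which both genes lie (Timp3 at chr10:86300412-86349505 and Col4a5 at chrX:141475370-141689236). They end at the last base before the annotated gene, and capitals mark a CCAAT match.
Timp3, chr10:86300162-86300411: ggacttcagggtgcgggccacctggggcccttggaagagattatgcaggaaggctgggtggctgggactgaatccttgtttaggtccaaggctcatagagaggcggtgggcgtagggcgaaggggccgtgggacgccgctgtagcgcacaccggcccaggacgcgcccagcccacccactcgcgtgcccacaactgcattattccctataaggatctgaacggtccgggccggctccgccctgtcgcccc
Col4a5, chrX:141475169-141475369: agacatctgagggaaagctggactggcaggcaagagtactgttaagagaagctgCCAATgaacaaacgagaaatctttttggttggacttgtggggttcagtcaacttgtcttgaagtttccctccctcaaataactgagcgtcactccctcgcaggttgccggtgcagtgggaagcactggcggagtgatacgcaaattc
The stretch before Timp3 holds 18 CpG dinucleotides in 250 bases (65.6% G and C) and that before Col4a5 holds 6 in 201 bases (49.8%). Entries for the 250 bases before the start were found for 22 of the 33 genes. Both strands were searched for 4 motifs: the CREB palindrome TGACGTCA, the C/EBP palindrome TTGCGCAA, the AP-1 site TGACTCA and the CCAAT box, named by its letters. None of these contains another. The CREB and the C/EBP palindromes were in 0 of the 22, against 1.77% and 0.185% of the 27025 genes with an entry. The AP-1 site was in 1, Col6a1 (5.16% of genes). CCAAT was in 8, namely Col1a2, Col4a1, Col4a2, Col4a5, Fbln5, Timp2, Vim and Twist1, or 36.4% of the 22 against 37.5% of genes. A match is a description of the letters in this window, and its absence says only that these letters are not there.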

How the data were processed

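Total RNA of 10 samples of primary mouse keratinocytes (2 undifferentiated, 4 differentiated, 2 A-C/EBP, 2 5-AZA) was hybridized to Affymetrix mouse arrays. The submitters' processing notes name Affymetrix Expression Console and RMA, without versions, and the deposited values are on the log2 scale. RMA corrects background, normalizes arrays to each other and summarizes probe sets. They were used without further normalization. RMA brings arrays towards 1 distribution, so a change shared by most genes may not be seen, and the number of arrays limits the precision. The deposited arrays still differed, with medians of 4.64 to 4.78. Their highest value was 13.67 in differentiated replicate 2 and 14.42 to 14.58 in the others. The part of such shifts in the spread among replicates was not tested. Of 45101 probe sets, 34958 had 1 gene symbol in the platform annotation, 932 several and 9211 none. Those with 1 symbol were averaged per gene (75 probe sets for the 32 genes described). All arrays entered 1 limma fit (limma 3.58.1, R 4.3.3) with a mean per condition, 6 residual degrees of freedom and moderated two-sided tests. The Benjamini-Hochberg adjustment ran over 18194 genes, and "rose" or "fell" means an adjusted p under 0.05. Fold changes are 2 to the power of the difference. The fit was tested on simulated data. All genes of the list are named. From other lists, up to 4 genes with the smallest adjusted p among those that passed in a comparison are named, and the highest cell type markers. The genes and lists were chosen with earlier results of these data known. Alternatives were other centring, normalization, probe set choice, filters, variance models, the methods' t-test, a covariate, a replicate block and omission of each array.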

Additional observations from a re-analysis of the deposited data

Results flagged for a closer look

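Each of the 32 genes was checked for a differentiated array that stands apart from the other 3, by the gap to its nearest neighbour over the whole range (Dixon's ratio, at its 95% critical value for 4 arrays). Chance flags about 1 in 20 such groups. In 2 genes an array stood apart, differentiated replicate 1 in both. Postn was at 7.83 there and at 5.32 in the nearest of the others (ratio 0.848). Fbln2 was at 5.15 there and at 4.35 in the nearest (ratio 0.893). The highest undifferentiated array of these genes was replicate 1, at 7.58 for Postn and 5.35 for Fbln2.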

How the results depend on the processing

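Each count was recomputed in 21 other settings and each median in 18 of them. A fit of only the 2 compared conditions, or without an array of another condition, keeps the compared means. Such settings cannot move the median and are no check on it. With differentiation 4 genes rose and 0 fell. The methods' t-test after Benjamini-Hochberg adjustment gave 0 that rose, and leaving out single arrays gave 0 to 5 that rose, 0 to 1 that fell and a median of −0.07 to 0.53, which was negative without undifferentiated replicate 2. The median was 0.34 without the dimmest 40% of genes and 0.28 with the hybridization controls as a covariate. With A-C/EBP 0 rose and 1 fell. There, 1 gene (Col4a5) rose with quantile normalization, the hybridization controls as a covariate, the t-test without adjustment or the replicate block. The number that fell was 2 with quantile normalization or the brightest probe set, 3 with the t-test without adjustment and 0 with it adjusted, and 0 to 1 without single arrays (median −0.51 to −0.13). With 5-AZA 0 rose and 1 fell. The number that rose was 2 with the replicate block and 3 with the unadjusted t-test. The number that fell was 0 with median centring, without probe sets that can match several transcripts, with only the 2 compared conditions and with the adjusted t-test, and 0 to 1 without single arrays (median −0.02 to 0.48). The cause of these shifts was not tested.

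The replicate numbers are not stated to mark shared cultures. Numbers 3 and 4 occur only among the differentiated arrays. A fit with the replicate numbers as a block therefore compares only differentiated replicates 1 and 2 with the other conditions. In that fit 3 genes rose and 0 fell with differentiation (the call of Timp3 ended, 1.07, adjusted p = 0.0757). With A-C/EBP 1 gene passed each way, and with 5-AZA 2 passed above and 1 below 0. The deviations of same-numbered arrays from their condition means correlated at 0.09 to 0.43 over all genes. Over the 32 genes they correlated at 0.92 between undifferentiated and differentiated replicates 1, at 0.58 between replicates 2, and at −0.18 to 0.36 between other conditions. In a condition of 2 arrays the deviations are equal and opposite, so the values for replicates 1 and 2 are not independent. Arrays with different numbers were not compared in this way. Where 1 array of a condition was left, its spread was taken to equal that of the other conditions. Of the 90 differences that did not pass, 81 passed in no setting and 41 changed sign in at least 1. Genes below the median probe set carry little information on differences.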
